A study of Mus musculus with 6 samples.

Results

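The Hist1 cluster of mouse chromosome 13 carried mostly narrow H3K79me2 peaks, which covered little of its sequence, in MN1-driven leukaemia cells. The cluster is the largest group of replication-dependent histone genes in the mouse genome. Its members were chosen by position: all peaks of the deposited list that overlap chr13:21800000-24030000 (mm9), an interval of 2.23 Mb. There were 16 such peaks, of 18992 in the list, and the other 1013 peaks of chromosome 13 served for comparison. The rule used no measured signal, but it was set with earlier results of these data known. All 16 peaks lay wholly inside the interval.

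The peaks come from chromatin immunoprecipitation and sequencing with an antibody against dimethylated lysine 79 of histone H3 (3 libraries), set against input chromatin sequenced without antibody (3 libraries). Both groups were made from the same kind of cells. These were blasts sorted from the bone marrow of moribund C57BL/6 mice that had received CMP cells transformed with the oncogene MN1. Both alleles of Dot1l, the gene of the enzyme that places the mark, were floxed and had not been inactivated, in both groups. The cells were cultured briefly with SCF, IL-3, IL-6 and serum before chromatin was taken. Whether libraries of different number stand for different mice is not stated in the labels.

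H3K79me2 is placed by DOT1L on the core of the nucleosome and is found along the first part of genes that are being transcribed. Replication-dependent histone genes supply the linker histone H1 and the core histones H2A, H2B, H3 and H4 while DNA is copied in S phase. They are short, lack introns, and give mRNAs that end in a stem-loop in place of a poly(A) tail. Vomeronasal receptors, which lie between the ends of the cluster, are expressed in sensory neurons of the vomeronasal organ.

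The deposited list pools the libraries, so it holds no value per library and no spread between replicates, and no test was run. The pileup is the coverage of pooled reads over a peak, and no source used here says whether it was scaled. Pileups, folds and q-values are the peak caller's own values, and each may be an average over the whole peak. The lowest pileup of any listed peak was 19 reads, and marking too weak to be called is missing from the list. The list names no genes.

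The genes of the cluster are known here by their order only. In the RefSeq annotation of GRCm38.p6, 255 genes run from the first to the last histone gene of the cluster, of which 56 are histone genes and 54 of these code for protein. The coding histone genes are 6 for H1, 13 for H2A, 15 for H2B, 9 for H3 and 11 for H4. In that order 23 of the 54 stand before the vomeronasal receptor genes and 31 after them, and none stands among them. The linker histone genes lean to 1 side, with 1 before the receptors and 5 after. Among the H3 genes, whose product carries the lysine of the mark, 2 stand before and 7 after. The 75 receptor genes, 36 of them annotated as coding, form a single block, which also holds 1 other coding gene and 11 pseudogenes or non-coding loci.

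Other annotated genes are mixed in with the histone genes. There are 77 tRNA genes, 32 before the receptors and 45 after, and none among them. Before the receptors stand 3 other coding genes, among them Prss16, which encodes a serine protease of the thymus. After the receptors stand 10 more. The nearest to the receptors in the order is Zfp322a, a zinc finger gene, followed by Abt1, an activator of basal transcription, and by the butyrophilin genes Btn1a1 and Btn2a2. Farther along are Hfe, a regulator of iron uptake, then Trim38 and 4 phosphate transporter genes of the Slc17a family. The last histone genes, H2bc1 and H2ac1, encode testis variants of H2B and H2A and are parted from H1f1 by 5 of these coding genes. The peak positions are of another build (mm9), so no peak was assigned to any of these genes.

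**Figure D1:**
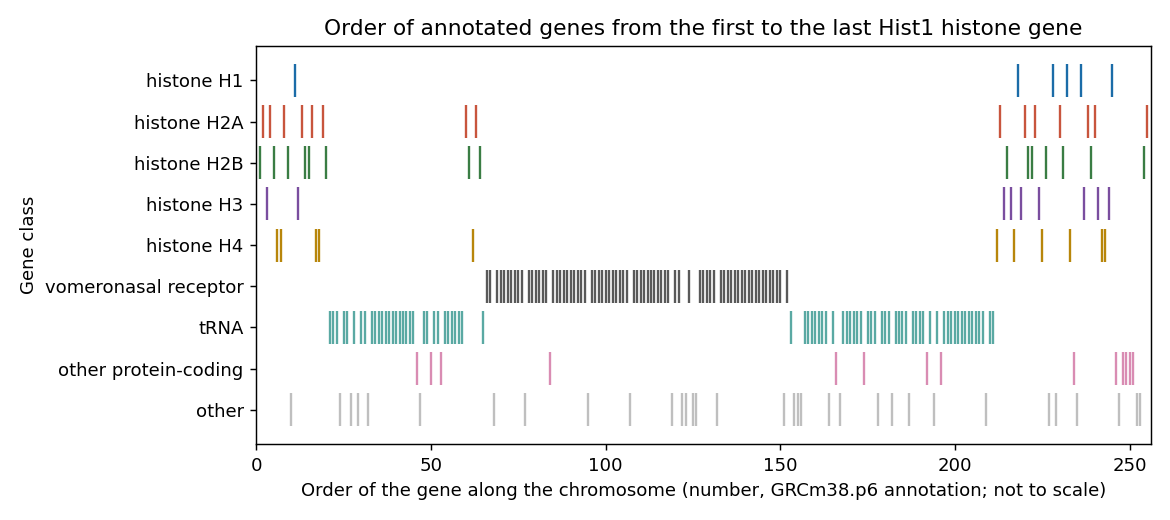
Order of the 255 annotated genes from the first to the last histone gene of the cluster, 1 line per gene; the horizontal axis is the order number (GRCm38.p6, not to scale) and each row is a gene class. The 54 coding histone genes and 2 histone pseudogenes lie on both sides of the block of 75 vomeronasal receptor genes, and the 77 tRNA genes lie outside that block.

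The promoters of the cluster are shown because they carry the start sites of the genes that define it. RefSeq promoter windows (GRCm38.p6, 250 bases before to 50 after the start) were found for 51 of the 54 coding histone genes, in 52 entries. For the first gene of each family in the annotated order, the 150 bases before the start follow, 5′ to 3′ on the strand of the gene. Capitals mark CCAAT and TATAAA on either strand (ATTGG and TTTATA on the other). Their positions are of GRCm38.p6 and cannot be set against the mm9 positions of the peaks.
H1f5 (Hist1h1b, chr13:21780626-21780775, - strand): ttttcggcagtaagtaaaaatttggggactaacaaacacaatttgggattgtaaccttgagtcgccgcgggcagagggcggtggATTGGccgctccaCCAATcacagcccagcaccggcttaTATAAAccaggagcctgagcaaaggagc
H2ac13 (Hist1h2ai, chr13:21716262-21716411, + strand): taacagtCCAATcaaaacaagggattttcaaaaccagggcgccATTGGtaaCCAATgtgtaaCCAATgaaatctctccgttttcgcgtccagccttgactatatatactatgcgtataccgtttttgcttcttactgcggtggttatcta
H2bc13 (Hist1h2bl, chr13:21716184-21716333, - strand): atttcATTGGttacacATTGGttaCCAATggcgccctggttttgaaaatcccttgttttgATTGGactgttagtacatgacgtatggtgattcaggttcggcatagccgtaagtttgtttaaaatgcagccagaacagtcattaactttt
H3c10 (Hist1h3h, chr13:21717478-21717627, + strand): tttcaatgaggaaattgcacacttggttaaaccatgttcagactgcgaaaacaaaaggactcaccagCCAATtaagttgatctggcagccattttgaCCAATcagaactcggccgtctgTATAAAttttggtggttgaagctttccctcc
H4c11 (Hist1h4j, chr13:21734884-21735033, + strand): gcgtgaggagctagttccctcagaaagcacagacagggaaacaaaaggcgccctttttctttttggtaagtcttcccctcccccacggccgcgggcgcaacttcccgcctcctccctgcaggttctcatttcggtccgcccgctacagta
The sequences of H1f5 and H3c10 each hold TATAAA shortly before the start, beginning 28 bases before it in H1f5 and 31 in H3c10, with CCAAT farther upstream. The sequences of H2ac13 and H2bc13 hold CCAAT in either direction but not TATAAA. They share 72 bases, read on opposite strands, since these neighbours are transcribed away from each other. Of 12 neighbouring pairs of an H2A and an H2B gene with a known strand, 10 are arranged in this way. The sequence of H4c11 holds neither motif.

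Both motifs were found in a larger share of the cluster's promoter windows than of all windows. CCAAT (either strand) was in 44 of 52 windows (84.6%), against 37.4% of all 32851 windows of the same length. It was in every window of H1, H2A, H2B and H3 genes and in 3 of 11 windows of H4 genes (27.3%). TATAAA was in 31 of 52 (59.6%), against 13.6% of all windows. The octamer ATTTGCAT (ATGCAAAT on the other strand), known from H2B promoters, was in 11 of 52 windows (21.2%) against 1.74% of all. Of these 11, 6 belonged to H2B genes and 5 to H2A genes, and paired genes can share the same match because their windows overlap. A match says only that these letters are in the window.

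H3K79me2 peaks lay near both ends of the interval, with none across its middle. Of the 16 peaks, 5 lay in the leftmost 239.3 kb and 11 in the rightmost 579.3 kb. Between them no peak was listed over 1.41 Mb, from 22039254 to 23450663, which is 63.3% of the interval. It was among the longer gaps of the chromosome: of the 1028 gaps between neighbouring peaks of chromosome 13, 12 were longer, the longest 3.68 Mb. The median gap on chromosome 13 was 6.91 kb, and between neighbouring members it was 30.6 kb. The list does not tell stretches without the mark from sequence to which no reads could be mapped.

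**Figure D2:**
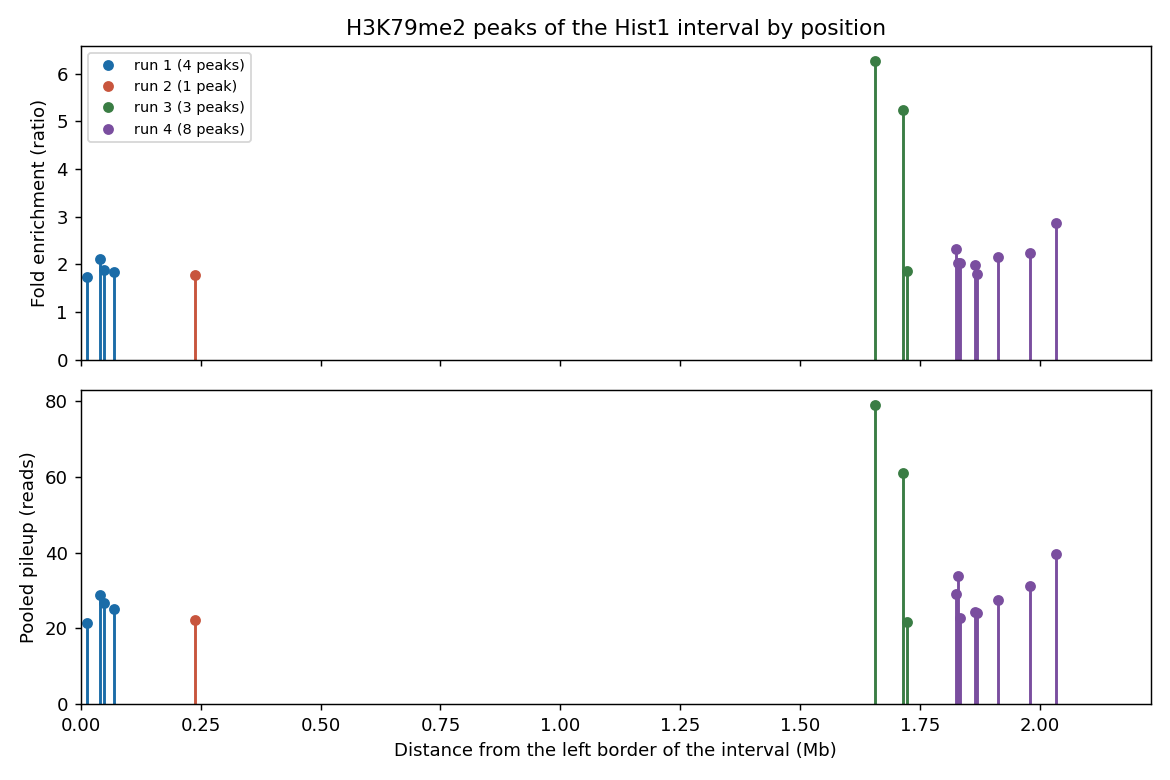
Fold enrichment (top, ratio) and pooled pileup (bottom, reads) of the 16 peaks at their centres; the horizontal axis is the distance in Mb from the left border of the interval, and colours mark the 4 runs of peaks. The tallest lines, at folds of 6.27 and 5.24, stand at the right edge of the stretch of 1.41 Mb without peaks.

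The peaks formed 4 runs when split at gaps over 100 kb. The leftmost run held 4 peaks from 21812054 to 21870426, with folds from 1.75 to 2.12 and pileups from 21.4 to 28.97 reads. A single peak followed, 167.3 kb farther on, with a fold of 1.77 and a pileup of 22.2 reads. All 5 peaks on this side were thus weak, and their median fold was 1.85. The third run, beyond the empty stretch, held 3 peaks from 23450664 to 23522171 and had the strongest marking of the interval. The fourth held 8 peaks from 23624651 to 23835872, with folds from 1.79 to 2.87. The gap that parts the last 2 runs, 102.5 kb, is barely over the limit, so the number of runs depends on it.

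A fold of at least 4 was reached in 2 neighbouring peaks, which were also the widest of the 16. The same fold was reached by 21.4% of the other peaks of chromosome 13. The strongest spanned 23450664 to 23460942, with a width of 10.3 kb, at a fold of 6.27. Its pileup was 78.9 reads and its −log10 q was 42.5. By fold it ranked 101 among the 1029 peaks of chromosome 13. The second, 50.04 kb to its right, spanned 23510981 to 23516226 with a width of 5.25 kb. Its pileup was 61.02 reads, its fold 5.24 and its −log10 q 28.7, and it ranked 148 by fold. Together the pair held 43.9% of the bases covered in the interval. A small peak of 0.651 kb lay 5.29 kb beyond the second, with a fold of 1.85 and a pileup of 21.7 reads.

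The peak next in both fold and width was also the last of the interval. It spanned 23832146 to 23835872, with a width of 3.73 kb, at a fold of 2.87, with 39.7 reads of pileup and a −log10 q of 8.46. None of the other 13 peaks had a −log10 q above 3.904. The following pair by fold belonged to the same rightmost run. One was the narrow peak of 0.644 kb from 23624651 to 23625294, with a fold of 2.32, 29.01 reads of pileup and a −log10 q of 3.90. The other was 2.49 kb wide, from 23777949 to 23780442, with a fold of 2.25, 31.2 reads of pileup and a −log10 q of 3.89. The fourth widest, 2.82 kb from 21839080 to 21841903 in the leftmost run, had a fold of 2.12, 28.97 reads of pileup and a −log10 q of 3.17. The first peak of the interval, from 21812054 to 21812599, was at once the weakest and the narrowest. Over its 0.546 kb the fold was 1.75, with 21.4 reads of pileup and a −log10 q of 1.24.

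The remaining members of the rightmost run were small and evenly weak. From left to right, the second to the sixth of its 8 peaks began at 23628053, 23632500, 23664697, 23668357 and 23711064. Their folds were 2.03, 2.04, 1.98, 1.79 and 2.16 in that order. Their pileups were 33.8, 22.8, 24.4, 24.2 and 27.5 reads, and their widths ran from 0.644 to 1.58 kb. The pileups and the folds did not keep the same order: the peak at 23628053 had the fourth highest pileup of the interval and a fold in the middle. In the leftmost run, the peaks beginning at 21847174 and 21869851 had folds of 1.89 and 1.85 and pileups of 26.6 and 25.1 reads.

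A smaller share of Hist1 peaks than of other chromosome 13 peaks reached a high fold, but the small number leaves a wide interval. A fold of at least 4 was reached by 2 of 16 (12.5%, exact interval 1.55% to 38.3%), against 21.4% of the other peaks of chromosome 13 and 29.3% of the whole list. A fold of at least 2 was reached by 9 of 16 (56.3%), against 57.4% on the rest of the chromosome. The second share lies close to that of the other peaks, and the interval of the first includes theirs. A −log10 q of at least 5 was reached by 3 of 16, against 36% of the others, and one of at least 10 by 2 of 16, against 28%.

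Hist1 peaks were narrower by their median than the other peaks of the chromosome. Their median width was 1.38 kb (interval of the median 0.644 to 2.82), against 3.72 kb (3.21 to 4.14) for the other peaks. A width of at least 5 kb was reached by 2 of 16 (12.5%, exact interval 1.55% to 38.3%), against 42.3% of the others. No Hist1 peak was 20 kb wide or more (0 of 16, upper bound of the exact interval 20.6%), against 15% of the others. The median pileup of Hist1 peaks was not lower, at 27.1 reads (22.8 to 33.8), against 24.4 (23.8 to 24.98). The median fold was 2.03 (1.85 to 2.32), against 2.08 (2.03 to 2.12), so the medians of the fold did not part beyond these intervals. The upper part of the peaks went the other way. The third quartile of the pileup was 31.8 reads against 43.5, and that of the fold 2.26 against 3.53.

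**Figure D3:**
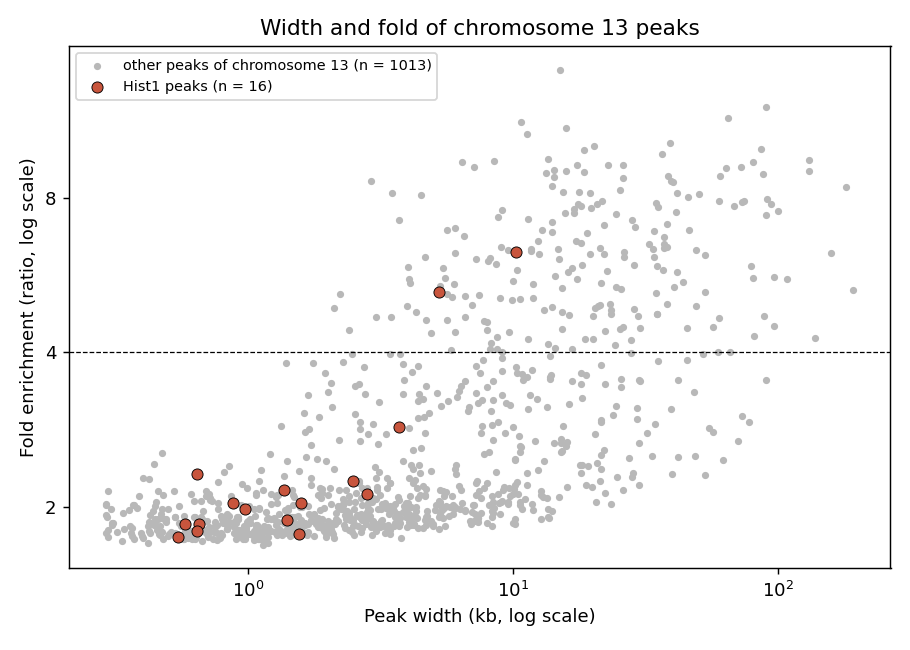
Width (kb, log scale) and fold enrichment (ratio, log scale) of the 1013 other peaks of chromosome 13 (grey) and the 16 Hist1 peaks (red); each point is a peak and the dashed line is a fold of 4. Only 2 Hist1 peaks are at least 5 kb wide, and the same 2 lie above the line.

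Since wide peaks had higher folds on this chromosome, peaks under 5 kb were also set side by side, a comparison chosen after the values were seen. Under 5 kb there were 14 Hist1 peaks and 585 others. Their widths were not matched, with medians of 1.17 kb in the cluster and 1.56 kb elsewhere. The median pileup was 25.9 reads (22.2 to 31.2) in the cluster and 22.1 (21.9 to 22.5) elsewhere. Of the 14, 12 lay above the median pileup of the others. The median fold was 2.01 (1.79 to 2.25) against 1.90 (1.88 to 1.91), with 8 of 14 above. Both medians were slightly higher for narrow Hist1 peaks, and for both the intervals overlapped those of narrow peaks elsewhere.

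The control background under the peaks had a higher median in the cluster than in the rest of the chromosome. It is the coverage the peak caller set against the pileup, worked back from pileup and fold on the assumption that 1 is added to both before dividing. Its median was 12.2 reads (11.8 to 13.2) under Hist1 peaks and 11.1 (11.1 to 11.2) under the other peaks of chromosome 13. No listed peak had a background below 10.5 reads, and the first quartile of the other peaks of chromosome 13 was 10.7 reads. Values this close to the lowest may not follow the input coverage under the peak, so the medians may not compare measured input. Of the 16 Hist1 peaks, 13 (81.3%, exact interval 54.4% to 95.95%) lay above the third quartile of the others, 11.7 reads, which 25% of the others exceeded. The peak from 23628053 to 23628927 had the highest background of all chromosome 13 peaks, 16.1 reads, where the others reached at most 15.2. Its pileup was 33.8 reads and its fold 2.03, the values from which this background was worked back.

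The background differed along the cluster. The 5 peaks left of the empty stretch had a median of 13.1 reads and the 11 to its right one of 11.96. The 2 strongest peaks had backgrounds of 11.8 and 10.8 reads, below the cluster's median. Among peaks under 5 kb the cluster's median was 12.6 reads and that of the others 10.8, with 13 of 14 Hist1 peaks above the latter. A higher background lowers the fold of a given pileup, and it may raise the pileup that a peak needs to be listed. The part of the background in the folds and pileups of the cluster was not tested.

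**Figure D4:**
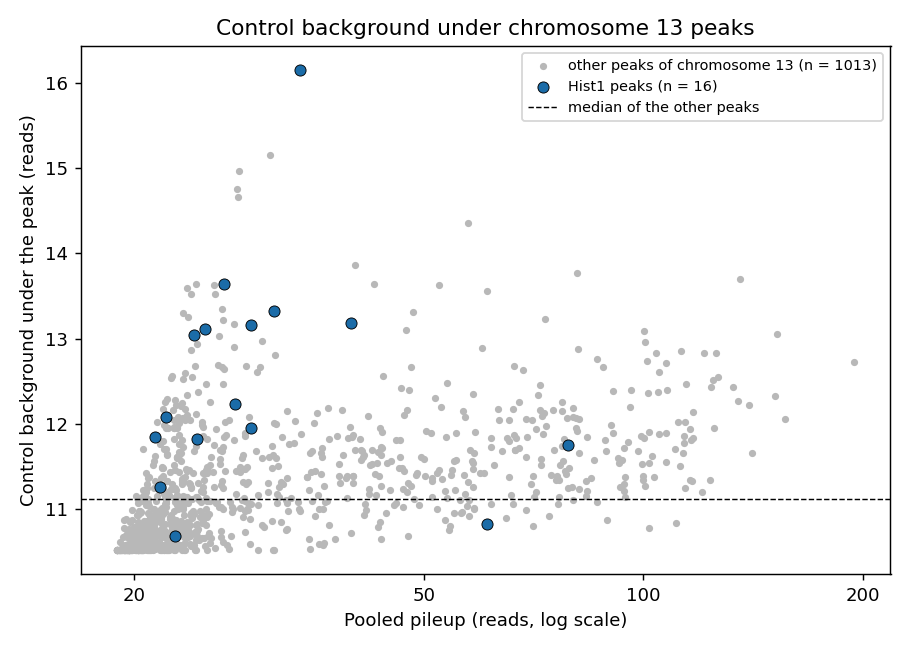
Pooled pileup (reads, log scale) and control background (reads) under the 1013 other peaks of chromosome 13 (grey) and the 16 Hist1 peaks (blue); each point is a peak and the dashed line is the median of the others, 11.1 reads. Of the Hist1 peaks, 14 lie above that line, where 50% of the others do, and 1 at 16.1 reads lies above every other point.

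The cluster had about as many peaks as other stretches of its length but little covered sequence. It held 7.17 peaks per Mb (Poisson interval 4.10 to 11.7), against 8.85 on the rest of chromosome 13. A Poisson interval takes peaks as falling independently, while windows of this length on chromosome 13 held from 0 to 83 peaks. The interval is therefore likely too narrow. The peaks covered 35.4 kb, or 1.59% of the interval, against 9.68% of the rest, a ratio of 0.164. The mean pileup over covered bases was 48.4 reads in the cluster and 63.3 elsewhere. With the empty stretch left out, the remaining 0.819 Mb held 19.5 peaks per Mb and was covered by 4.32%. This last pair of values was computed after the place of the stretch was known. The values for the rest of the chromosome keep all of its long gaps, so the pair cannot be set against them.

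Windows of the same length laid end to end along chromosome 13 show the same contrast. Of the other 51 windows, 24 held fewer peaks than the cluster and 27 held more. The median of all 52 windows was 18 peaks and 9.51% covered, and the most covered reached 33.6% with 83 peaks. Only 5 windows were less covered than the cluster, and each of these held fewer peaks. The 27 windows with more peaks were covered by at least 8.79%. The cluster therefore combined a middling number of peaks with a share covered near the low end.

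**Figure D5:**
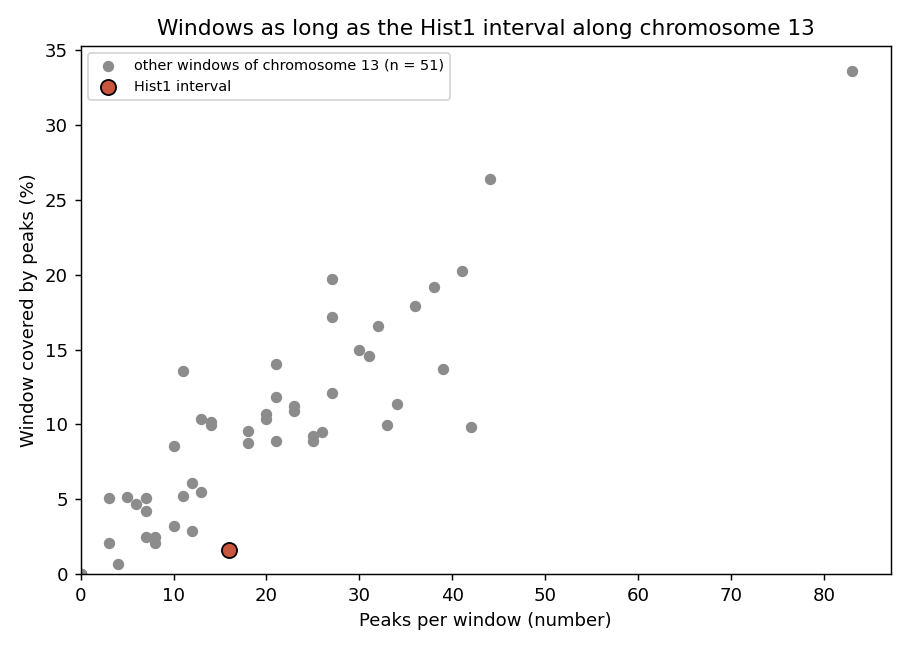
Number of peaks and share covered (%) in 52 windows of 2.23 Mb along chromosome 13, 1 point per window, with the Hist1 interval in red. At 16 peaks and 1.59% covered, the cluster lies below all 27 windows with more peaks, which start at 8.79%.

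The nearest peak beyond each border had a higher fold than 14 of the 16 Hist1 peaks. The nearest peak on the left, from 21614964 to 21622961, lay 177.04 kb from the border and was 7.998 kb wide, with a pileup of 47.2 reads and a fold of 3.42. The nearest on the right, from 24592324 to 24622054, lay 562.3 kb from the border and was 29.7 kb wide, with a pileup of 58.6 reads and a fold of 4.71. The last Hist1 peak was 756.5 kb from it, so a long stretch without peaks began inside the interval and ran on beyond its right border. Over the 5 Mb on each side, 90 peaks had a median width of 3.13 kb, a median pileup of 22.7 reads and a median fold of 1.99. In pileup and fold these medians lay below those of the cluster, 27.1 reads and 2.03, but for both the intervals of the medians overlapped. For the pileup they were 21.97 to 24.2 in these flanks and 22.8 to 33.8 in the cluster. For the fold they were 1.92 to 2.12 and 1.85 to 2.32. A fold of at least 4 was reached by 17.8% of the 90 peaks, against 12.5% of Hist1 peaks.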

How the data were processed

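Chromatin from MN1-driven leukaemia cells was sequenced after immunoprecipitation for H3K79me2 (3 libraries) or as input (3 libraries), grouped by the titles of the samples. Per the submitters' processing notes, the tools were GSNAP, CASAVA 1.8.2, MACS2, SAMtools and bedtools 2.25.0, on the build mm9. Settings, peak-calling mode and reads per library are not given there. Per the file headers, the deposited table holds for each peak the pileup (a coverage signal), the fold enrichment (a linear ratio to the control background), and −log10 q, a q-value of the authors' peak caller. It has no value per library, and its −log10 p was not used. All 18992 lengths equal end minus start plus 1, and no peaks overlap.

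Peaks that share at least 1 base with the interval were taken as members and set beside the other peaks of chromosome 13, with no test. Members were split into runs at gaps over 100 kb. The control background is (pileup + 1) / fold − 1, assuming a peak caller that adds 1 to both before dividing. Intervals are 95% intervals: exact Clopper-Pearson for shares, exact Poisson for densities and binomial ranks for medians. They carry counting error, or spread among peaks, and nothing between replicates. They also treat peaks as independent, which close neighbours may not be, so they may be too narrow. The rest of chromosome 13 runs from its first to its last peak, the interval left out. The 16 peaks are all accounted for, and the highest, the widest, the weakest and the outermost are given in full. Gene names and their order came from a RefSeq table of GRCm38.p6 and promoters from a RefSeq table of the same build. A histone pseudogene of chromosome 13 that lies far from the others in that order was left out. Peak positions are mm9, so no gene was assigned to a peak. The members and lists were chosen with earlier results of these data known. Computations were tested on simulated data. Python 3.11.15, numpy 2.4.6, pandas 2.3.3, scipy 1.17.1 and matplotlib 3.10.9 were used.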

Additional observations from a re-analysis of the deposited data

How the results depend on the processing

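No paired analysis was possible because all libraries are combined in 1 list. For the same reason no replicate could be left out. The call threshold moved the number of peaks, the share covered, the share at a high fold and the density ratio. At a −log10 q of at least 5 the cluster held 3 peaks, covered 0.863% of the interval, with 66.7% of peaks at a fold of at least 4, a density ratio to the rest of the chromosome of 0.422 and a median fold ratio of 1.13. At a −log10 q of at least 10 these were 2 peaks, 0.696%, 100% and a density ratio of 0.362. As deposited they were 16 peaks, 1.59%, 12.5%, 0.811 and, for the fold, 0.976. The median fold ratio was 0.877 with peaks at most 3 kb apart merged and 0.886 against the other autosomes, so its side of 1 turned on the setting. The median pileup ratio was 1.11 as deposited, 0.967 with those peaks merged and 0.982 against the other autosomes. The density ratio was 1.06 with those peaks merged. Both of these ratios thus also changed their side of 1. The 4 runs became 7 at gaps of 50 kb and 2 at 200 kb. The ratio of covered sequence lay between 0.107 and 0.179 over its 7 alternatives, and that of median width between 0.28 and 0.75 over its 9. Of all 69 values under alternatives, 56 moved by less than the counting error of the 16 peaks or, for counts and lengths, by less than 1.5 times. Some of these 56 could not move, so the tally is no measure of robustness. All 16 peaks lay wholly inside the interval, none was under 500 bp, and widening it by 100 kb added none. The 3 values with peaks under 5 kb only were chosen after seeing the data. All folds rest on pooled reads, and marking too weak to be called is missing from the list, whose lowest pileup was 19 reads.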
